A study of Mus musculus with 12 samples.

Results

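Mice of 4 genotypes were compared for the genes that mark the layers and projection neurons of the cerebral cortex. The 9 genes were chosen by name, as rows of the deposited count table, out of 24062 gene symbols. Upper layers were represented by Cux1, Cux2, Rasgrf2 and Rorb, and deep layers by Fezf2, Bcl11b, Tbr1, Foxp2 and Tle4. Each genotype had 3 libraries of cortical RNA, 12 in all, from mice aged 9 months. WT mice carried neither the transgene nor the Tia1 null allele. Tia1+/- mice had 1 null copy of Tia1, which encodes an RNA binding protein of stress granules, and no transgene. PS19 mice (labelled P301S) carried human P301S tau under the prion protein (Prnp) promoter, which is active in many brain cells, with both copies of Tia1 intact. P301S Tia1+/- mice had the tau transgene and 1 null copy of Tia1. The animals came from crosses of transgenic and non-transgenic Tia1+/- parents, and mice with end-stage symptoms were left out by the study.

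The cortex is built of layers that differ in where their neurons project. Neurons of the upper layers mostly connect cortical areas with each other, and layer IV receives thalamic input. Layer V holds the neurons that project to the brainstem and spinal cord, and layer VI those that project to the thalamus. Several of the transcription factors that set these identities during development remain on in the adult and so report on the neurons present in a piece of tissue. Bcl11b and Foxp2 are also strongly expressed by the medium spiny neurons of the striatum, which lies directly beneath the cortex, and Tbr1 by the output neurons of the olfactory bulb. In bulk RNA, fewer cells of a type and less RNA per cell cannot be told apart.

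Some libraries went against their labels or stood apart. The sample titles and the deposited genotype entries exchange the Tia1+/- and P301S Tia1+/- groups, and the titles are followed here; what the other reading changes stands among the processing alternatives. Xist, transcribed in female cells, had 3304 to 5693 counts in the 6 libraries of both Tia1+/- groups and 0 to 13 in the 6 others, whereas Y-linked Ddx3y had 0 to 2 and 1605 to 2296, so that sex and Tia1 genotype cannot be told apart although the methods name male mice. Tia1 itself was at 61.4 to 79.8 CPM (read counts scaled to library size) in the Tia1+/- libraries, 75.4 to 93.8 in WT, 70.8 to 77.9 in PS19 and 72.6 to 77.8 in P301S Tia1+/-. A list of 8 olfactory bulb genes (Tbx21, Eomes, Cdhr1, Doc2g, Omp, S100a5, Stoml3 and Th) summed to 1023 CPM in WT replicate 1 and to 634 to 779.8 CPM in the 3 P301S Tia1+/- libraries, against 5.92 to 14.6 CPM in PS19. A list of 10 striatal genes, among them the dopamine receptor Drd2, summed to 1900 CPM in Tia1+/- replicate 3 and to 136.8 to 351.5 CPM in the other 11 libraries. Libraries held 11978962 to 19146484 counts, and the lowest count of any marker was 47.

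Of the 9 genes, 8 had a promoter window in the RefSeq table for GRCm38.p6. Stretches upstream of a RefSeq start site are shown for Fezf2, Rorb and Tle4. They were chosen because Fezf2 and Rorb were low in the same libraries and Tle4 gave the smallest unadjusted p-value of all marker tests. All 3 genes lie on the minus strand, each run is written 5′ to 3′ on that strand, and bases in annotated exons are left out. Capitals mark matches to the TATA box TATAAA, the CAAT box with letters CCAAT, the GC box written GGGCGG, or the E-box CAGCTG, on either strand; no marked matches overlap. The Fezf2 stretch lies at chr14:12345960-12346115 and ends 95 bases before its RefSeq start site. This whole stretch lies inside the annotated Fezf2 gene (12342094 to 12348189), not upstream of the 5′ end of the gene. The Rorb stretch is chr19:19111197-19111446 and that of Tle4 chr19:14598184-14598433, both ending at the base before the start site and both the farther upstream of 2 windows the table has for the gene.
Fezf2: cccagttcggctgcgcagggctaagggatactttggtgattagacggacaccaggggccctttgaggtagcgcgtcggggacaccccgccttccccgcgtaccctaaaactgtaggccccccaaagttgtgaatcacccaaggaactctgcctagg
Rorb: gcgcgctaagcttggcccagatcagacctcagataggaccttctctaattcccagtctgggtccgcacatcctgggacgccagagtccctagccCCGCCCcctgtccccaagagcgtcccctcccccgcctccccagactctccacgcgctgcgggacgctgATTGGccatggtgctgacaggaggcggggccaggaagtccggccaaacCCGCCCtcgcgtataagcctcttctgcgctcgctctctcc
Tle4: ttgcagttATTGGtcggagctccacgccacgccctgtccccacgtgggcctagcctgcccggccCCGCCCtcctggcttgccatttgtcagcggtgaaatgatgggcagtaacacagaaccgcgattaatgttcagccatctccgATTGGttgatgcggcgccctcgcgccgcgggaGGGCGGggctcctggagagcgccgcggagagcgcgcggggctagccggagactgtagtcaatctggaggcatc
The Fezf2 stretch of 156 bases held no match, and the stretches of 250 bases held 3 for Rorb and 4 for Tle4. The rest of the 250-base Fezf2 window, not printed, held a GGGCGG match at position −85, so these counts are not over equal lengths. Over all 32851 windows of 250 bases in the table, 32.7% held GGGCGG, 33.8% CCAAT, 12.4% TATAAA and 13% CAGCTG, so that the first pair is common among promoters of any kind. GC content was 60.3% in the Fezf2 stretch, 66.0% in that of Rorb and 65.2% in that of Tle4, with a median of 52.4% over all windows.

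Cux1, a homeodomain factor of layers II to IV (chromosome 5, 136248135 to 136567490 on GRCm38, minus strand), was the upper layer gene that separated PS19 from the other genotypes. Its level was 137, 105 and 122 CPM in WT, 115, 117 and 110 CPM in Tia1+/-, 94.5, 71.4 and 83.2 CPM in PS19 and 113, 117 and 128 CPM in P301S Tia1+/-. All 3 PS19 libraries lay below all 9 others, which overlapped with each other. Group means were 121 ± 16.1 (SD, n = 3), 114 ± 3.53, 83.0 ± 11.5 and 119 ± 7.92 CPM in the same order.

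Cux2, its paralog with a similar layer pattern (chromosome 5, 121856366 to 122050102, minus strand), was at 42.3, 64.1 and 75.3 CPM in WT, 72.6, 68.7 and 39.2 CPM in Tia1+/-, 65.7, 58.4 and 53.6 CPM in PS19 and 43.1, 48.7 and 56.9 CPM in P301S Tia1+/-. Every pair of genotypes compared overlapped, and the lowest libraries were Tia1+/- replicate 3, WT replicate 1 and P301S Tia1+/- replicate 1. Rasgrf2, a guanine nucleotide exchange factor of layers II and III (chromosome 13, 91880400 to 92131656, minus strand), had group means of 164 ± 55.4 CPM in WT, 161 ± 14.3 CPM in Tia1+/-, 174 ± 14.6 CPM in PS19 and 155 ± 2.79 CPM in P301S Tia1+/-. The range across the WT libraries, 108 to 219 CPM, contained every other library.

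Rorb, an orphan nuclear receptor concentrated in layer IV (chromosome 19, 18930605 to 19111196, minus strand), varied 3.0-fold over the 12 libraries. It was at 50.5, 121 and 143 CPM in WT, 145, 151 and 59.9 CPM in Tia1+/-, 97.6, 84.8 and 77.6 CPM in PS19 and 53.9, 65.0 and 53.5 CPM in P301S Tia1+/-. P301S Tia1+/- lay wholly below PS19, and WT replicate 1 and Tia1+/- replicate 3 lay within or below its range rather than near the rest of their groups.

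Fezf2, the zinc finger factor that specifies layer V subcerebral projection neurons (chromosome 14, 12342094 to 12348189, minus strand), had the widest range of the 9 genes, 11.4-fold between libraries. Its level was 3.76, 38.4 and 31.0 CPM in WT, 39.5, 35.9 and 3.48 CPM in Tia1+/-, 30.3, 36.0 and 35.5 CPM in PS19 and 14.3, 14.0 and 9.76 CPM in P301S Tia1+/-. In 7 libraries it was at 30.3 CPM or above, and in the 5 others at 14.3 CPM or below. These 5 were WT replicate 1, Tia1+/- replicate 3 and the 3 P301S Tia1+/- libraries. In the same 5 the olfactory bulb list passed 500 CPM or the striatal list 1000 CPM, cutoffs that were not planned beforehand. WT replicate 2 had 145.6 CPM for the bulb list and 38.4 CPM for Fezf2.

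Tbr1, a T-box factor of layer VI corticothalamic neurons (chromosome 2, 61802930 to 61814114, plus strand), divided the libraries the same way. It was at 19.4, 62.3 and 54.1 CPM in WT, 82.7, 62.6 and 24.4 CPM in Tia1+/-, 42.8, 56.4 and 67.4 CPM in PS19 and 29.1, 36.3 and 28.1 CPM in P301S Tia1+/-. The 5 libraries named for Fezf2 spanned 19.4 to 36.3 CPM and the 7 others 42.8 to 82.7 CPM.

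Bcl11b, which encodes the factor CTIP2 of corticospinal neurons (chromosome 12, 107910403 to 108003602, minus strand), ran the other way. Its level was 84.0, 77.1 and 48.9 CPM in WT, 62.7, 54.1 and 165 CPM in Tia1+/-, 55.8, 77.5 and 73.4 CPM in PS19 and 84.5, 89.9 and 81.9 CPM in P301S Tia1+/-. The 5 libraries with low Fezf2 had the 5 highest levels, 81.9 to 165 CPM, against 48.9 to 77.5 CPM in the 7 others.

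Foxp2, a forkhead factor of layer VI (chromosome 6, 14901349 to 15441977, plus strand), was at 18.3, 20.9 and 8.29 CPM in WT, 27.4, 24.4 and 78.2 CPM in Tia1+/-, 15.6, 31.1 and 23.9 CPM in PS19 and 14.5, 15.2 and 17.3 CPM in P301S Tia1+/-. Tia1+/- replicate 3 held 3.02 times the mean of the other Tia1+/- libraries for Foxp2 and 2.83 times for Bcl11b, the 2 members also known from striatal neurons. Even without it, both remaining Tia1+/- libraries lay above the 3 WT ones.

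Tle4, a Groucho family corepressor found in layer VI corticothalamic neurons (chromosome 19, 14448150 to 14598051, minus strand), differed 1.55-fold between the highest and the lowest WT library and 1.09- to 1.13-fold within the other genotypes. It was at 51.4, 79.8 and 58.5 CPM in WT, 99.8, 91.4 and 92.0 CPM in Tia1+/-, 82.3, 79.7 and 88.7 CPM in PS19 and 63.5, 56.0 and 57.3 CPM in P301S Tia1+/-. Tia1+/- lay above all other libraries, and P301S Tia1+/- lay below both PS19 and Tia1+/- but overlapped WT.

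**Figure D1:**
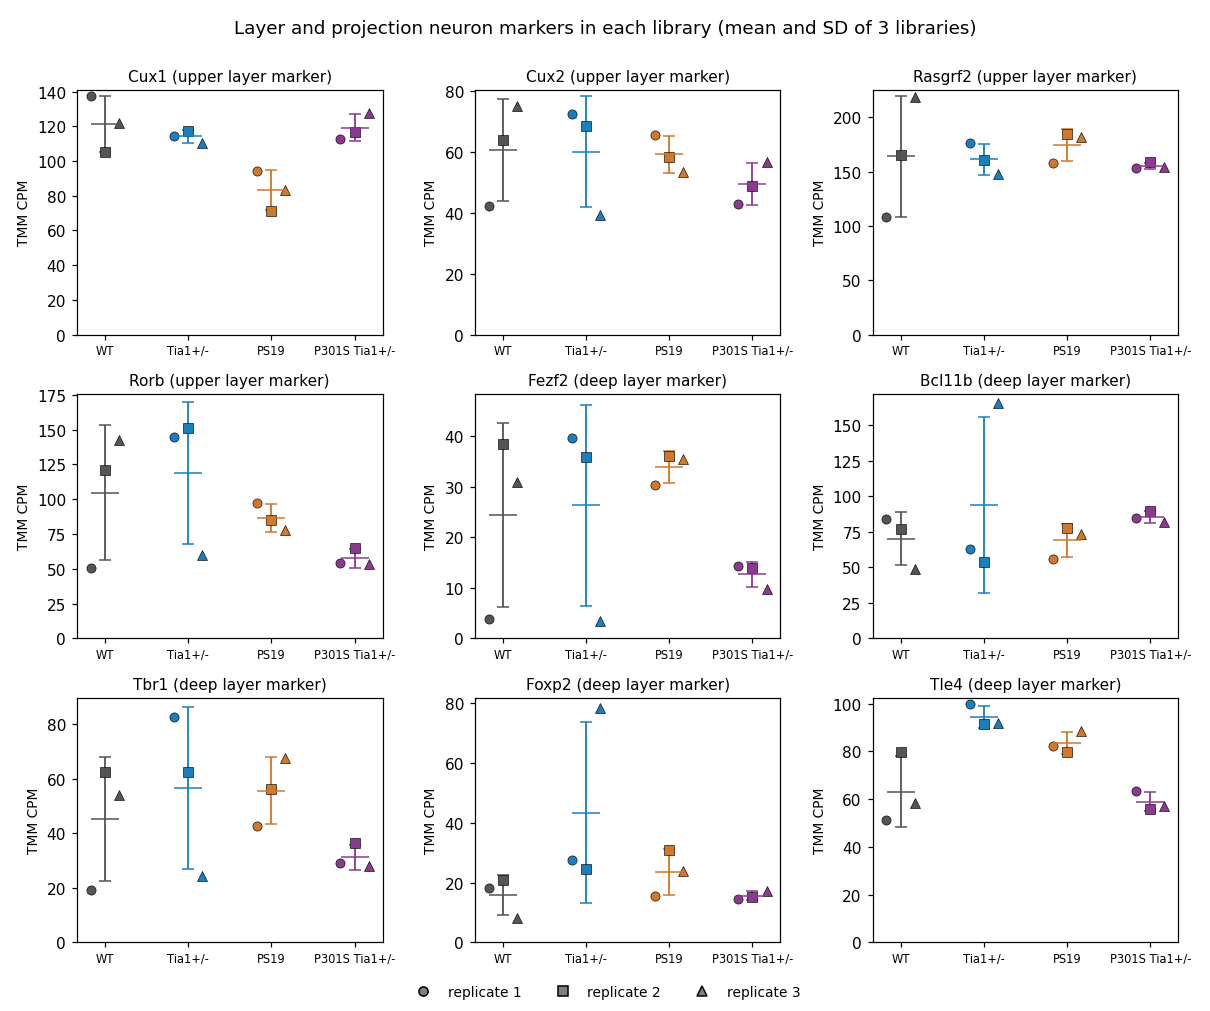
Level of each of the 9 genes in TMM CPM (y axis, from 0) by genotype (x axis), 1 panel per gene; points are libraries with the replicate number as shape, horizontal lines the mean and bars the SD of 3 libraries. In the Fezf2 panel WT replicate 1 (3.76 CPM) and Tia1+/- replicate 3 (3.48 CPM) sit far below the rest of their groups, while in the Cux1 panel the 3 PS19 libraries (71.4 to 94.5 CPM) lie below all others.

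Per kilobase of annotated exon, the mean level over 12 libraries was highest for Rasgrf2 (17.7 CPM per kb) and Tle4 (13.2), followed by Bcl11b (9.81), Tbr1 (8.59), Rorb (8.30), Fezf2 (7.98), Cux2 (5.69), Cux1 (5.47) and Foxp2 (1.5). The order below Rasgrf2 differed between genotypes. In P301S Tia1+/- Bcl11b was above Tle4 (10.3 CPM per kb), and Cux1 (5.95) was above Tbr1. In PS19 Fezf2 (11.1 CPM per kb) was above Tbr1 (10.1), Bcl11b (8.49) and Rorb (7.82), whereas in P301S Tia1+/- Bcl11b (10.5) was above Tbr1 (5.68), Rorb (5.19) and Fezf2 (4.16).

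Relative to the mean of its fellow WT libraries, WT replicate 1 held 0.108 times the Fezf2 level, 0.333 times Tbr1, 0.383 times Rorb, 0.561 times Rasgrf2, 0.607 times Cux2 and 0.743 times Tle4, but 1.21 times Cux1, 1.26 times Foxp2 and 1.33 times Bcl11b. Genes outside the 9 moved with it. Neurod6, expressed by excitatory cortical neurons, was at 8.32 CPM against a mean of 106 CPM in the other WT libraries, and Gad1, which makes GABA in inhibitory neurons, at 1222 against 419 CPM. Tia1+/- replicate 3 had 0.0922 times the Fezf2 level of its group's other libraries, 0.336 times Tbr1 and 0.405 times Rorb, with Gad1 at 803 against 323 CPM. The mean over P301S Tia1+/- was 0.373 times that of PS19 for Fezf2, 0.562 times for Tbr1 and 0.663 times for Rorb, and 1.24 times for Bcl11b, with Gad1 at 964 against 318 CPM. Lhx6, a factor of cortical interneurons and like Gad1 on the list of 4 inhibitory neuron genes, did not follow Gad1 in all of these libraries. It was at 1.68 CPM in WT replicate 1 against 11.3 and 16.3 CPM in the other WT libraries, and at 5.23 to 6.04 CPM in P301S Tia1+/- against 13.9 to 15.2 CPM in PS19, whereas Tia1+/- replicate 3 had 27.5 CPM against 15.3 and 16.1 CPM in its group.

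The defining genes of the bulb list, Tbx21 and Eomes of its output neurons, were at 21.5 and 62.4 CPM in WT replicate 1, at 9.78 to 12.6 and 39.9 to 45.1 CPM in P301S Tia1+/-, and at 0 to 0.24 and 0.06 to 0.56 CPM in PS19. All 8 bulb genes had counts in the 4 libraries with a high list level, but also in others such as PS19 replicate 1, with a list level of 5.92 CPM. In Tia1+/- replicate 3 the bulb list summed to 128 CPM, against 7.59 and 6.57 CPM in Tia1+/- replicates 1 and 2. Drd2, which marks 1 class of striatal neurons, was at 26.9 CPM in Tia1+/- replicate 3 and at 0.28 to 3.44 CPM elsewhere. The part of bulb or striatal tissue in the marker levels was not tested beyond the fits described here.

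**Figure D2:**
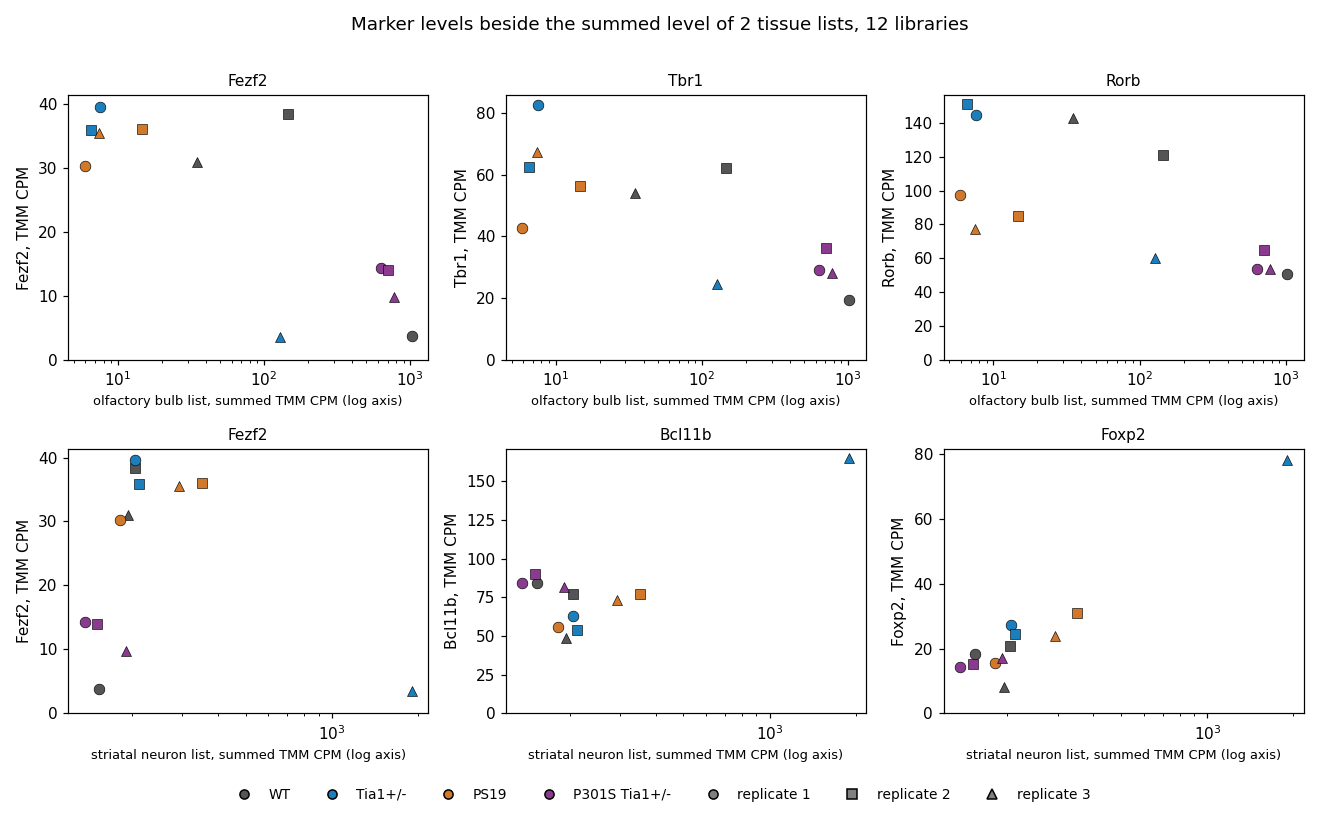
Level of named markers (y axes, TMM CPM from 0) against the summed TMM CPM of the olfactory bulb list (top row) or the striatal list (bottom row) on logarithmic x axes, with colour for the genotype and shape for the replicate number of the 12 libraries. Fezf2 is low both where the bulb list is high (WT replicate 1 and P301S Tia1+/-) and in Tia1+/- replicate 3, in which the striatal list (1900 CPM), Bcl11b (165 CPM) and Foxp2 (78.2 CPM) are highest.

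Whether tau pathology at 9 months goes with a loss of layer markers is addressed by PS19 against WT. With all 12 libraries in 1 fit (edgeR quasi-likelihood test, Benjamini-Hochberg adjusted over the 15440 genes tested), 0 of 9 members passed an adjusted p of 0.05, as did 0% of all genes, and 2 members had an unadjusted p under 0.05, as did 16.3% of all genes. Cux1 was lower by a log2 fold change of −0.55 (SE 0.12, edgeR adjusted p = 0.157) and Tle4 higher by 0.40 (SE 0.14, adjusted p = 0.213). The log2 fold changes of the 7 others ran from −0.27 for Rorb to 0.57 for Foxp2, with standard errors of 0.19 to 0.77. For Fezf2 the value was 0.48 (SE 0.77), so that the WT replicates differed by more than the genotypes did. Cux1 alone did not overlap between the genotypes, where 20.8% of all genes did not. DESeq2's Wald test called Cux1 (adjusted p = 0.00466), as it did 2.89% of genes.

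Leaving out WT replicate 1 and Tia1+/- replicate 3 together, a choice made after seeing the data, reduced the standard error of Fezf2 from 0.77 to 0.15 in this comparison. Its log2 fold change was then −0.028 (edgeR adjusted p = 0.947), Tbr1 was at −0.065 and Bcl11b at 0.13. Of the 9 genes, Rorb alone passed, at −0.60 (SE 0.11, edgeR adjusted p = 0.0468), where 0.476% of genes did, and Cux1 was at −0.45 (SE 0.11, adjusted p = 0.0926). WT replicates 2 and 3 still had bulb list levels of 145.6 and 35.1 CPM, above the 3 PS19 libraries.

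Loss of 1 Tia1 copy in the tau mice is addressed by P301S Tia1+/- against PS19, groups that also differ in sex by Xist and Ddx3y. Tia1 RNA itself overlapped, at 72.6 to 77.8 CPM in P301S Tia1+/- and 70.8 to 77.9 CPM in PS19. No member passed in the fit of 12 libraries, where 0.240% of genes did, and 2 members had an unadjusted p under 0.05, as did 19.3% of all genes. Libraries of the groups did not overlap for 6 of the 9, against 38.5% of all genes. Rorb, Fezf2, Tbr1 and Tle4 were lower in every P301S Tia1+/- library, and Cux1 and Bcl11b higher. Log2 fold changes were −1.42 for Fezf2 (SE 0.79, edgeR adjusted p = 0.346), −0.83 for Tbr1 (SE 0.45, adjusted p = 0.334) and −0.59 for Rorb (SE 0.38, adjusted p = 0.402). Cux1 was higher by 0.52 (SE 0.12, edgeR adjusted p = 0.0914) and Tle4 lower by −0.50 (SE 0.14, adjusted p = 0.117). DESeq2 called these last 2 genes, with 5.46% of all genes called.

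In this comparison the adjusted p-values depended on which libraries set the spread. Without WT replicate 1 and Tia1+/- replicate 3, neither of which belongs to the groups compared, the fold changes moved little and 5 members passed, where 22.9% of genes did. Fezf2 was at −1.44 (SE 0.14, edgeR adjusted p = 3.56e-05), Rorb at −0.62 (SE 0.11, adjusted p = 0.00138), Tbr1 at −0.85 (SE 0.16, adjusted p = 0.00294), Tle4 at −0.53 (SE 0.10, adjusted p = 0.00338) and Cux1 at 0.49 (SE 0.099, adjusted p = 0.00383). The olfactory bulb list was at 634 to 779.8 CPM in every P301S Tia1+/- library and at most 14.6 CPM in PS19, and the summed inhibitory neuron list was at 1161 to 1382 against 469.8 to 615 CPM, carried by Gad1 and Gad2 and with Lhx6 lower, so that bulb tissue and genotype cannot be told apart here. With the bulb list level as a covariate, the log2 fold changes of Fezf2 (3.15), Tbr1 (1.43) and Rorb (1.48) turned positive. Among these genes Rorb alone passed in that fit, where 6.35% of genes did. The covariate itself did not overlap between the groups, so its fit cannot tell bulb tissue and genotype apart and the sizes are uncertain. The endothelial list did not overlap either, at 149.9 to 179 CPM in P301S Tia1+/- and 121 to 134 CPM in PS19, and its part was not tested.

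Loss of 1 Tia1 copy without the transgene is addressed by Tia1+/- against WT, which likewise differ in sex. None of the members passed, where 0.712% of genes did, and 2 had an unadjusted p under 0.05, as did 19.1% of all genes. Tle4 was higher by 0.58 (SE 0.14, edgeR adjusted p = 0.0741) and Foxp2 by 1.46 (SE 0.46, adjusted p = 0.129), and these 2 did not overlap, as 20.0% of genes did not. DESeq2 called both, with 6.74% of genes called. Without WT replicate 1 and Tia1+/- replicate 3, the log2 fold change was 0.47 for Tle4 (SE 0.13, edgeR adjusted p = 0.0820) and 0.84 for Foxp2 (SE 0.35, adjusted p = 0.219), and 0 members passed, where 1.72% of genes did; 2 members had an unadjusted p under 0.05, as did 19.1% of all genes. Without Tia1+/- replicate 3 alone, the value of Foxp2 was 0.72.

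The effect of the transgene on the Tia1+/- background is addressed by P301S Tia1+/- against Tia1+/-. Again 0 of 9 passed, with 0% of all genes called, and 3 members had an unadjusted p under 0.05, as did 15.6% of all genes. Tle4 was lower by −0.68 (SE 0.14, edgeR adjusted p = 0.175), Foxp2 by −1.47 (SE 0.46, adjusted p = 0.217) and Rorb by −1.05 (SE 0.38, adjusted p = 0.249). Tle4 and Foxp2 did not overlap, against 26.0% of genes, and DESeq2 called both, with 2.62% of genes called. The value of Foxp2 was −0.73 without Tia1+/- replicate 3 alone and −0.74 (SE 0.30, edgeR adjusted p = 0.102) without both that library and WT replicate 1. Without the 2 libraries 6 members passed, where 23.4% of genes did. Fezf2 (−1.59, SE 0.16), Rorb (−1.38, SE 0.11), Tbr1 (−1.24, SE 0.18), Tle4 (−0.71, SE 0.11) and Cux2 (−0.53, SE 0.12) fell, with edgeR adjusted p of 1.58e-05 to 0.00823. Bcl11b rose by 0.54 (SE 0.17, edgeR adjusted p = 0.0408), although its log2 fold change over all 12 libraries was −0.14. As before, the bulb list separated these groups, since the 2 remaining Tia1+/- libraries were at 6.57 and 7.59 CPM. Over all 3 libraries of each group, P301S Tia1+/- also lay below Tia1+/- for the oligodendrocyte list (2147 to 2403 against 2836 to 3761 CPM) and above it for astrocytes (2012 to 2193 against 1559 to 1939 CPM) and endothelium (149.9 to 179 against 125 to 130 CPM), and the part of these lists was not tested.

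**Figure D3:**
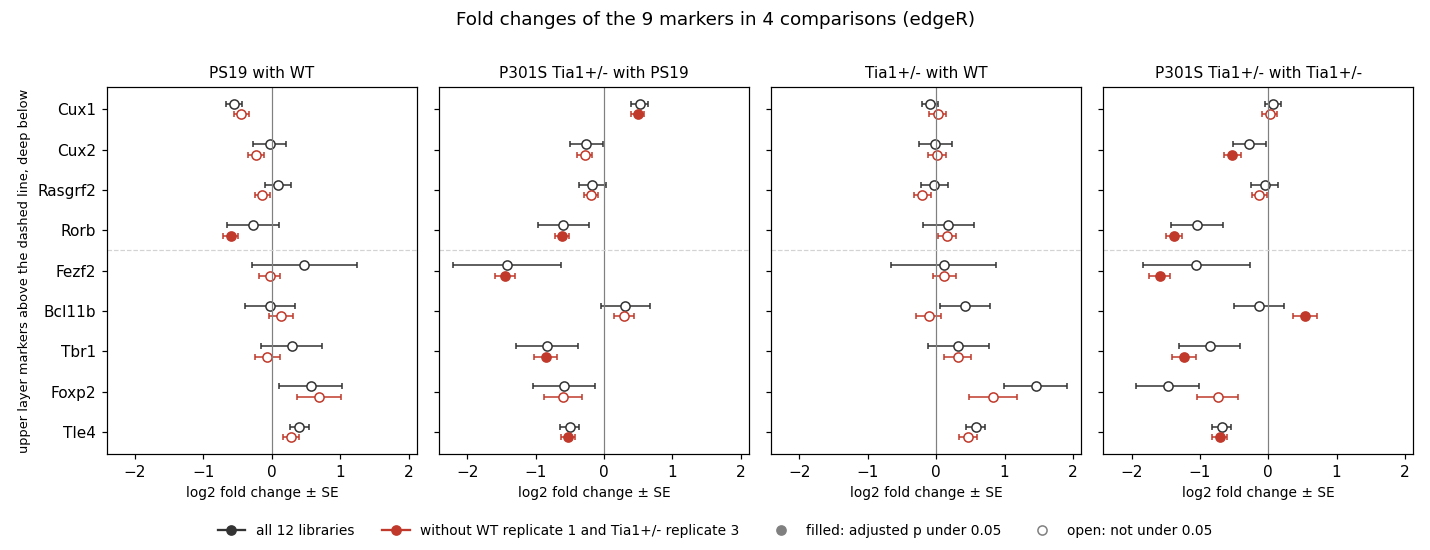
Log2 fold change with its SE (x axis) of each gene (y axis) in the 4 comparisons, from edgeR on all 12 libraries (dark) and on 10 libraries without WT replicate 1 and Tia1+/- replicate 3 (red); filled points have an adjusted p under 0.05. All dark points are open, and in P301S Tia1+/- with PS19 the red points of Fezf2 (−1.44), Tbr1, Rorb, Tle4 and Cux1 (0.49) are filled at nearly the same fold change.

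The interaction, the Tia1 difference in tau mice less that in mice without the transgene, passed for 0 of 9 members, where 0.00648% of genes passed, and 3 members had an unadjusted p under 0.05, as did 22.9% of all genes. Tle4 gave −1.08 (SE 0.19, edgeR adjusted p = 0.0579), being higher in all Tia1+/- than WT libraries and lower in all P301S Tia1+/- than PS19 ones. Cux1 gave 0.61 (SE 0.17, edgeR adjusted p = 0.0845) and Foxp2 −2.04 (SE 0.65, adjusted p = 0.115). Over all processing alternatives Cux1 ran from 0.022 to 0.70 and Foxp2 from −4.97 to −0.83. Without Tia1+/- replicate 3 alone Foxp2 was at −1.31, and without WT replicate 1 as well at −1.43 (edgeR adjusted p = 0.0527). DESeq2 called these 3 genes, with 8.08% of all genes called. Without WT replicate 1 and Tia1+/- replicate 3, 4 members passed, where 13.5% of genes did, with Fezf2 at −1.56, Tbr1 at −1.17, Tle4 at −0.99 and Rorb at −0.78 (edgeR adjusted p of 0.000983 to 0.0114). For single genes an exact permutation test of 3 against 3 libraries cannot go below p = 0.10, so none was run.

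The balance of deep to upper layer markers, as the mean log2(CPM + 1) of the 5 deep less that of the 4 upper genes in each library, was lowest in WT (−1.56 ± 0.42, SD, n = 3), followed by P301S Tia1+/- (−1.40 ± 0.12), Tia1+/- (−1.08 ± 0.18) and PS19 (−0.95 ± 0.31). Single libraries ran from −1.93 in WT replicate 3 to −0.77 in PS19 replicates 2 and 3. WT and PS19 overlapped, at −1.93 to −1.10 and −1.31 to −0.77. Without Bcl11b and Foxp2, the 2 genes shared with the striatum, the order was P301S Tia1+/- (−1.54 ± 0.19), WT (−1.51 ± 0.63), Tia1+/- (−1.22 ± 0.57) and PS19 (−0.77 ± 0.24). The 3 PS19 libraries then had −1.04 to −0.57 and the 3 P301S Tia1+/- ones −1.76 to −1.38, with no overlap. The value of Tia1+/- replicate 3 moved from −0.91, the highest of its group, to −1.86, the lowest.

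A further 30 layer genes, 13 of upper and 17 of deep layers, were all tested, and none passed in any comparison or in the interaction with the edgeR test on 12 libraries. In P301S Tia1+/- against PS19, 11 of the 13 upper layer genes had a negative log2 fold change, with a median of −0.68 beside 0.0097 over all genes tested; 10 did not overlap, where 38.5% of all genes did not, and 5 had an unadjusted p under 0.05, 1 of them higher, where 19.3% of all genes did. Among the 17 deep layer genes 8 were positive and 9 negative, with a median of −0.17, 8 without overlap and 4 under an unadjusted p of 0.05, against the same shares of all genes. In PS19 against WT the medians were −0.11 for upper and −0.11 for deep layer genes, beside −0.0066 over all genes, with 1 and 2 genes under an unadjusted p of 0.05 (16.3% of all genes). Tia1+/- against WT gave medians of −0.23 and 0.26, with 2 and 3 such genes (19.1% of all genes), and P301S Tia1+/- against Tia1+/- gave −0.61 and −0.23, with 4 and 1 (15.6% of all genes).

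Named by size of change among these lists, Mdga1, a cell adhesion gene of layers II and III, was higher in P301S Tia1+/- than in PS19 by 2.31 (SE 0.75, edgeR adjusted p = 0.155). It was at 32.7 to 46.3 CPM in the 3 P301S Tia1+/- libraries, at 46.9 CPM in WT replicate 1 and 33.4 CPM in Tia1+/- replicate 3, and at 5.72 to 10.9 CPM in the 7 others. Syt6, a synaptotagmin of layer VI, divided the libraries likewise, with 74.1 to 155 CPM in those 5 and 13.1 to 41.4 CPM in the others, and its log2 fold change was 1.90 (SE 0.81) in P301S Tia1+/- against PS19 and −1.56 (SE 0.80) in PS19 against WT. Scnn1a, a sodium channel subunit used to mark layer IV, was at 0.119 to 0.314 CPM in P301S Tia1+/- and 0.580 to 3.61 CPM in Tia1+/-, levels of few counts, with a log2 fold change of −3.27 (SE 0.89, edgeR adjusted p = 0.186). Crym, a thyroid hormone binding protein of layer V, was higher in PS19 than WT by 1.25 (SE 0.43) and in Tia1+/- than WT by 1.32 (SE 0.43), and its lowest level was 14.3 CPM in WT replicate 1. Inhba, an activin subunit, was lower in PS19 than WT by −1.81 (SE 0.48, edgeR adjusted p = 0.167), at 45.1, 13.6 and 12.5 CPM in WT and 6.24 to 7.33 CPM in PS19. The other genes the rule names had log2 fold changes of −1.51 for Mdga1 in PS19 with WT, −2.17 for Scnn1a and 1.98 for Nxph4 in P301S Tia1+/- with PS19, 1.65 for Otof, −1.31 for Inhba and 1.03 for Ntsr1 in Tia1+/- with WT, and −1.70 for Rspo1, 1.16 for Nxph4 and −1.15 for Zfpm2 in P301S Tia1+/- with Tia1+/-, none passing the test.

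**Figure D4:**
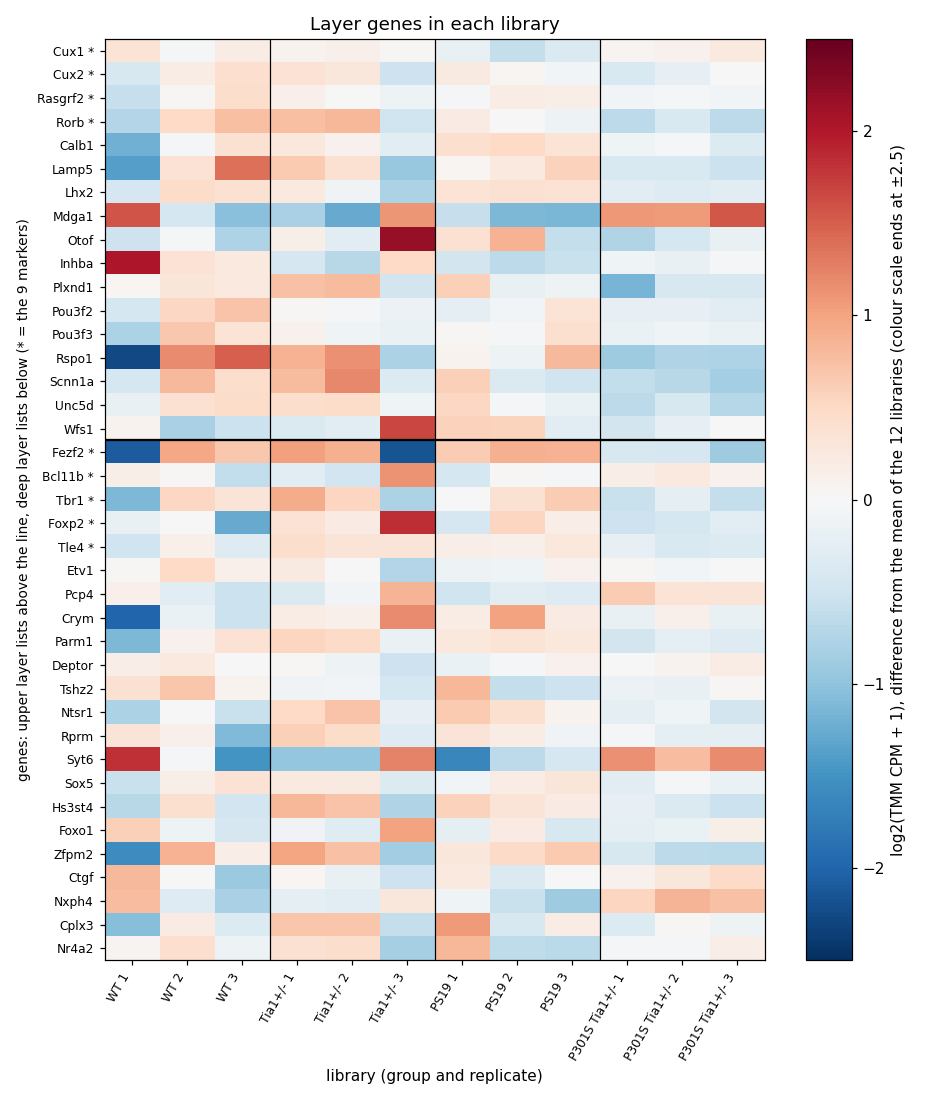
Heat map of the 9 markers (asterisks) and 30 further layer genes in 12 libraries, as log2(CPM + 1) less the mean over the libraries (red above, blue below); upper layer genes stand above the line. The columns of WT replicate 1, Tia1+/- replicate 3 and P301S Tia1+/- share blue cells for Fezf2, Tbr1, Rorb and Zfpm2 and red cells for Mdga1 and Syt6.

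General neuron lists were read beside the layer genes. A list of 5 excitatory neuron genes summed to 943 CPM in WT replicate 1, 1007 CPM in Tia1+/- replicate 3 and 1260 to 1510.0 CPM in P301S Tia1+/-, and to 1489 to 2203 CPM in the 7 other libraries. The inhibitory neuron list of 4 genes was at 1161 to 1657 CPM in the former 5 and at 469.8 to 679 CPM in the latter 7, and Gad1 and Gad2 made up most of it. A list of 6 general neuron genes ran from 4924 to 5913 CPM in those 5 and from 6326 to 8096 CPM in the rest. PS19 libraries, at 1773 to 2137 CPM for the excitatory list, overlapped WT replicates 2 and 3 (1489 and 2025 CPM). Lists of other cell types summed, over the 12 libraries, to 1559 to 2580 CPM for astrocytes, 1598 to 3761 for oligodendrocytes, 187 to 361 for microglia and 116 to 179 for endothelium. Microglial genes did not overlap between PS19 (235 to 361 CPM) and WT (187 to 214 CPM), nor oligodendrocyte genes between Tia1+/- (2836 to 3761 CPM) and WT (1598 to 2426 CPM), the groups in which Cux1 and Tle4 differed without overlap, and their part in those differences was not tested. Lists for other structures near the cortex summed to 5.04 to 12.4 CPM for the dentate gyrus and 7.03 to 22.1 for the thalamus. The choroid plexus list ran from 2.58 to 45.8 CPM. It was highest in PS19 replicate 1 (45.8 CPM) and Tia1+/- replicate 3 (40.7 CPM), and its part was not tested.

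The genes whose profile over the 12 libraries was most like that of each marker were found by the root mean square difference of centred log2(CPM + 1) values. Of the genes near to Fezf2, Gm11549 had a difference of 0.27 beside a spread of 1.13 (SD of Fezf2 itself). Nearest to Tbr1 were Gabbr2 (0.15) and D430041D05Rik (0.16), and to Rorb Adora1 and Mb21d2 (both 0.19). Bcl11b was followed most closely by Mctp1 (0.14) and Clip4 (0.16), and Tle4 by Rnf150 and Lpo (both 0.14). Lpo was at only 0.080 to 0.838 CPM over the 12 libraries, a level of few counts at which a small difference says little. Cux1 had Pygm (0.085) and Slc38a6 (0.11) as its nearest, Cux2 Lrrc4 and Ciz1 (both 0.12), and Rasgrf2 Limk1 (0.072) and AW209491 (0.094). For Foxp2 the nearest were Ido1 (0.28) and Cd4 (0.31) beside a spread of 0.72, and both were below 10 CPM in every library.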

How the data were processed

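RNA sequencing of cortex was done by the authors with a stranded total RNA kit on 100 ng RNA; the labels call the tissue brain. The deposited values are whole-number read counts per gene symbol, made by the authors with TopHat2 (2.0.6 in the submitters' processing notes; the methods name another version) on mm10 and featureCounts; the annotation and the strand setting are not given in the sources used here, so antisense reads could not be told apart. 1 table held all 12 libraries.

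Counts were fitted over all 12 libraries with edgeR 4.0.16 (filterByExpr, TMM, quasi-likelihood test, Benjamini-Hochberg adjustment over 15440 genes, threshold 0.05; R 4.3.3); DESeq2 1.42.0 was the alternative. CPM are TMM-scaled and log values use a pseudocount of 1. Fold changes are log2, with an SE from the test statistic. Counts of 11978962 to 19146484 per library limit low genes. The p-values rest on the spread between mice within groups, estimated for each gene over all libraries in the fit and not only the groups compared. The fit was tested on simulated counts with the same spread for every gene and no deviating library. That simulation cannot show how the fit handles libraries such as WT replicate 1.

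The 9 members and all gene lists were chosen with earlier results of these data known. Genes named beside the 9 were, by rule, the further layer genes that passed in any contrast or had the 2 largest changes per list and comparison, the 2 genes nearest in profile to each member (1 of them is not reported here), the checks Xist, Ddx3y and Tia1, and marker genes beside a result. Neurod6 and Gad1 were chosen after their values were seen. Positions are from GENCODE M21 on GRCm38 and promoters from RefSeq. Libraries with the same number showed no pairing (correlation of deviations over 0.1 in 7 of 18 pairs, median −0.080). Replicates differed beyond sampling noise, so each library was counted once.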

Additional observations from a re-analysis of the deposited data

Results flagged for a closer look

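Tle4 stood out among the 9 genes because every library moved one way in one contrast and the other way in the second. All 3 Tia1+/- libraries (91.4 to 99.8 CPM) were above all 3 WT libraries (51.4 to 79.8 CPM), and all 3 P301S Tia1+/- libraries (56.0 to 63.5 CPM) were below all 3 PS19 libraries (79.7 to 88.7 CPM). The difference between these contrasts, the interaction, was −1.08 on the log2 scale (edgeR adjusted p = 0.0579). It passed without each of 4 single libraries (WT replicate 1, 2 or 3, or Tia1+/- replicate 3), at −1.29 to −0.97. Over all alternatives the interaction ran from −1.29 to −0.50, and its adjusted p (edgeR or DESeq2) from 9.85e-05 to 0.704. The bulb list was at 634 to 779.8 CPM in every P301S Tia1+/- library and at most 14.6 CPM in PS19. No outlier test was run within groups of 3 libraries, and the 2 libraries left out elsewhere were chosen after seeing the data.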

How the results depend on the processing

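With all 12 libraries 0 of 9 members passed in each of the 4 comparisons and the interaction, and this held with DESeq2 size factors, no filter, at least 10 counts in every library, and the replicate number as a block. The replicate block gave 0 members in all 5 and turned the direction of 1 of 45 fold changes. Listed as tau in Tia1+/+ mice (PS19 with WT), Tia1 in tau mice (P301S Tia1+/- with PS19), Tia1 alone (Tia1+/- with WT), tau in Tia1+/- mice and their interaction, DESeq2's Wald test called 1, 2, 2, 2 and 3 members. It called 2.89%, 5.46%, 6.74%, 2.62% and 8.08% of all genes. Of all genes, 0.476%, 22.9%, 1.72%, 23.4% and 13.5% passed without WT replicate 1 and Tia1+/- replicate 3 (chosen after seeing the data). The member counts in that setting were 1, 5, 0, 6 and 4. With the olfactory bulb list level as a covariate they were 2, 3, 4, 4 and 6, where 3.37%, 6.35%, 7.68%, 7.59% and 7.12% of genes were called, and with the bulb and striatal levels together (chosen after seeing the data) 1, 1, 0, 1 and 1, where 0.434%, 2.46%, 0.130%, 1.33% and 0.667% were. The striatal level alone gave 1 member (Tle4) in the interaction, where 4.55% of genes passed. Fits of only the 6 libraries compared gave 5 members in P301S Tia1+/- with PS19, where 20.1% of genes passed, and 1 in P301S Tia1+/- with Tia1+/-, where 2.22% did. Leaving out 1 library at a time gave 0 to 2 members in P301S Tia1+/- with PS19 and in P301S Tia1+/- with Tia1+/- (2 in each without WT replicate 1, where 10.3% and 6.11% of genes passed). Such fits gave 0 to 1 in Tia1+/- with WT (Tle4 without WT replicate 2, where 0.0637% of genes passed) and 0 to 1 in the interaction (Tle4). In the interaction 1.55%, 0.0764% and 6.59% of genes passed without WT replicate 1, 2 and 3, and 2.6% without Tia1+/- replicate 3.

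Members without overlap numbered 1 to 2 in PS19 with WT, 2 to 4 in Tia1+/- with WT and 2 to 8 in P301S Tia1+/- with Tia1+/- as 1 library was left out, the 4 and the 8 without Tia1+/- replicate 3. Over all genes the shares without overlap were then 25.9% to 37.5%, 25.3% to 39.0% and 31.1% to 54.8%, against 20.8%, 20.0% and 26.0% with 12 libraries. Members numbered 2, 4 and 8 without the 2 libraries together, with 33.0%, 52.5% and 54.8% of genes. P301S Tia1+/- with PS19 had 6 members without overlap with 12 libraries (38.5% of genes) and 6 to 8 as 1 library was left out (45.2% to 49.8%). With DESeq2 size factors PS19 with WT had 2, for which no share of all genes is given here. The deep less upper balance of P301S Tia1+/- moved from −1.40 to −1.54 without Bcl11b and Foxp2.

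Some fold changes reversed. With the bulb covariate, P301S Tia1+/- with PS19 gave 1.48 for Rorb, 3.15 for Fezf2, 1.43 for Tbr1 and −1.29 for Bcl11b; P301S Tia1+/- with Tia1+/- gave 0.78 for Cux2, 0.85 for Rorb, 3.34 for Fezf2 and 1.23 for Tbr1; the interaction gave 2.35 for Rorb, 5.45 for Fezf2 and 2.29 for Tbr1. With both covariates the same values were 1.09, 1.80, 0.96 and −0.25, then 0.47, 0.44, 2.05 and 0.76, then 1.63, 3.14 and 1.44. Of the values listed with the bulb covariate, Rorb passed in P301S Tia1+/- with PS19, Fezf2 in P301S Tia1+/- with Tia1+/-, and Rorb and Fezf2 in the interaction. With both covariates none of the values listed passed. The cause of the reversals was not tested. Rorb in PS19 with WT (−0.27) was −1.50 (edgeR adjusted p = 0.0124) with the bulb covariate, −1.19 with both, 0.044 with the striatal covariate and −0.60 to 0.030 as 1 library was left out. Bcl11b in P301S Tia1+/- with Tia1+/- (−0.14) was 0.54 with the striatal covariate and without the 2 libraries, and −0.44 to 0.54 as 1 library was left out, positive without Tia1+/- replicate 3. Over all 45 fold changes of the members, 24 turned with the bulb covariate, 25 with both, 7 with the striatal one and 10 without the 2 libraries. In the new direction 10 passed the threshold with the bulb covariate, 4 with both, 0 with the striatal one and 1 without the 2 libraries, among them Rorb at 1.48 (edgeR adjusted p = 0.0193).

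If the deposited genotype entries were right and the titles wrong, 0 members would pass in all 5 with 12 libraries. Without the 2 libraries 1 would pass in PS19 with WT (Rorb, 0.476% of genes), 1 in P301S Tia1+/- with PS19 (Rorb, 0.283%), 5 in Tia1+/- with WT (25.8%), 6 in P301S Tia1+/- with Tia1+/- (23.4%) and 4 in the interaction (14% of genes), and the fold changes of P301S Tia1+/- with Tia1+/- would change sign. Every member had 47 counts or more in every library, and the highest standard error was that of Fezf2, 0.77 to 0.79 in the 4 comparisons.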
